A study of Mus musculus with 6 samples.

Results

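Translation initiation factors are the proteins that bring messenger RNA, initiator tRNA and the small ribosomal subunit together at a start codon. In one arm of the pathway, eIF2 carries the initiator tRNA, eIF2B recharges eIF2 with GTP, and kinases that phosphorylate the alpha subunit of eIF2 stop that exchange when cells are stressed. In the other, the eIF4F complex binds the cap of the messenger RNA, eIF3 joins it to the ribosome, and the 4E-BP proteins block its cap-binding subunit. Activated T cells raise protein synthesis strongly and quiescent T cells keep it low, so both arms are of interest in memory and effector cells.

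The genes described are those whose array probe sets carry a single gene symbol that begins with Eif, leaving out Eif5a, Eif5a2, Eif4ebp1 and Eif2ak2. There were 43 such genes among 15964 named genes, with 96 probe sets among 36899. The array type SubA held 54 of these probe sets, SubB 25 and SubC 17. Their transcripts were measured in total RNA of CD8+ T cells generated in vitro from spleen and lymph nodes of female P14 mice, whose T cells all carry the same transgenic receptor, on the C57Bl/6 background. All cultures received the cognate peptide for 2 days. The central memory (CM) cells then grew in IL-15 for 7 days and were sorted for a high level of a surface marker, and the effector/effector memory (E/EM) cells grew in IL-2 for 7 days and were sorted for a low level of it. Each of the 6 arrays is 1 combination of cell kind and array type, so no group has a replicate, no p-value was computed, and the values describe these arrays. Whether 1 RNA preparation served all arrays of a kind, how old the mice were and how many were pooled are not stated in the sources used here.

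Of 8 listed markers of cytotoxic T cells 6 were readable in both kinds of cells. The other 2, Lck and Trac, had no probe set with that symbol alone. Cd8a had signals of 5882.7 in CM and 5133.8 in E/EM cells, and Cd3e had 6545.6 and 7095.9. The 6 log2 ratios ran from -0.72 for Cd3g, at 3079.7 against 5083.7, to 0.50 for Cd8b1, at 12298.3 against 8709.3. The helper T cell gene Cd4 had 131.7 in CM and 49.3 in E/EM cells. Zbtb7b, a regulator of helper T cells, was readable in E/EM cells alone. On SubA it had 19.8 in CM and 239.5 in E/EM cells, at least 7.66-fold lower in CM cells. On SubB it had 63.3 and 857.9, at least 9.74-fold lower. Of 5 B cell markers 4 were above the floor, and the highest of their signals was 370.9, for Cd79b. Of 5 macrophage and monocyte markers 3 were readable, Cd68 at 89.4 in CM and 199.5 in E/EM cells, Cd14 at 88.2 and 136.6, and Csf1r with log2 ratios of 0.09 and -0.21, while Lyz2 and Adgre1 lay under the floor in both kinds. Of 3 erythroid markers 2 were readable, Hba-a1 at 109.5 in CM and 78.0 in E/EM cells, and Klf1 at 78.4 and 110.8. The part of such cells in the values below was not tested. The floor, the limit under which a signal was not read, was a signal of 31.28 for SubA, 88.12 for SubB and 194.34 for SubC. It was set from bacterial control probe sets, and a signal above it is called readable. A readable signal was found for 47.1% to 69.1% of probe sets on the 6 arrays.

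Most initiation factor transcripts had similar signals in CM and E/EM cells. A ratio of CM over E/EM signal could be formed for 40 of the 43 genes, since at least 1 of their probe sets was readable in both kinds of cells. By gene, 1 of 40 was at least 2-fold lower in CM cells, where 5.61% of all 10946 measured genes were, and 0 of 40 were at least 2-fold higher, where 2.73% were. At 1.5-fold, 3 genes were lower (13.9% of all genes) and 3 were higher (10.1% of all genes). Thus 34 of 40, or 85.0%, lay within 1.5-fold, against 76.0% of all genes. By probe set with a ratio on SubA, 86.4% of members lay within 1.5-fold, beside 81.2% of all. On SubB these shares were 76.5% and 70.8%, and on SubC 40.0% and 59.4%. The lower genes were Eif2ak3, Eif4e3 and Eif5, and the higher ones were Eif2b4, Eif4ebp2 and Eif4g3. Each of the higher calls rested on 1 probe set that stood apart from the gene's other readable ones. After quantile normalization 3 genes were lower and 1, Eif2b4, was higher, and without SubC only Eif4ebp2 was higher. The median log2 ratio was -0.07, with quartiles at -0.27 and 0.21, beside -0.0025 and quartiles at -0.33 and 0.29 for all genes. Of the 40 genes 25 (62.5%) had a negative ratio and 15 a positive one, where 50.3% of all genes were below 0. In RNA from many cells a lower signal cannot be told apart from fewer cells that make the transcript.

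**Figure D1:**
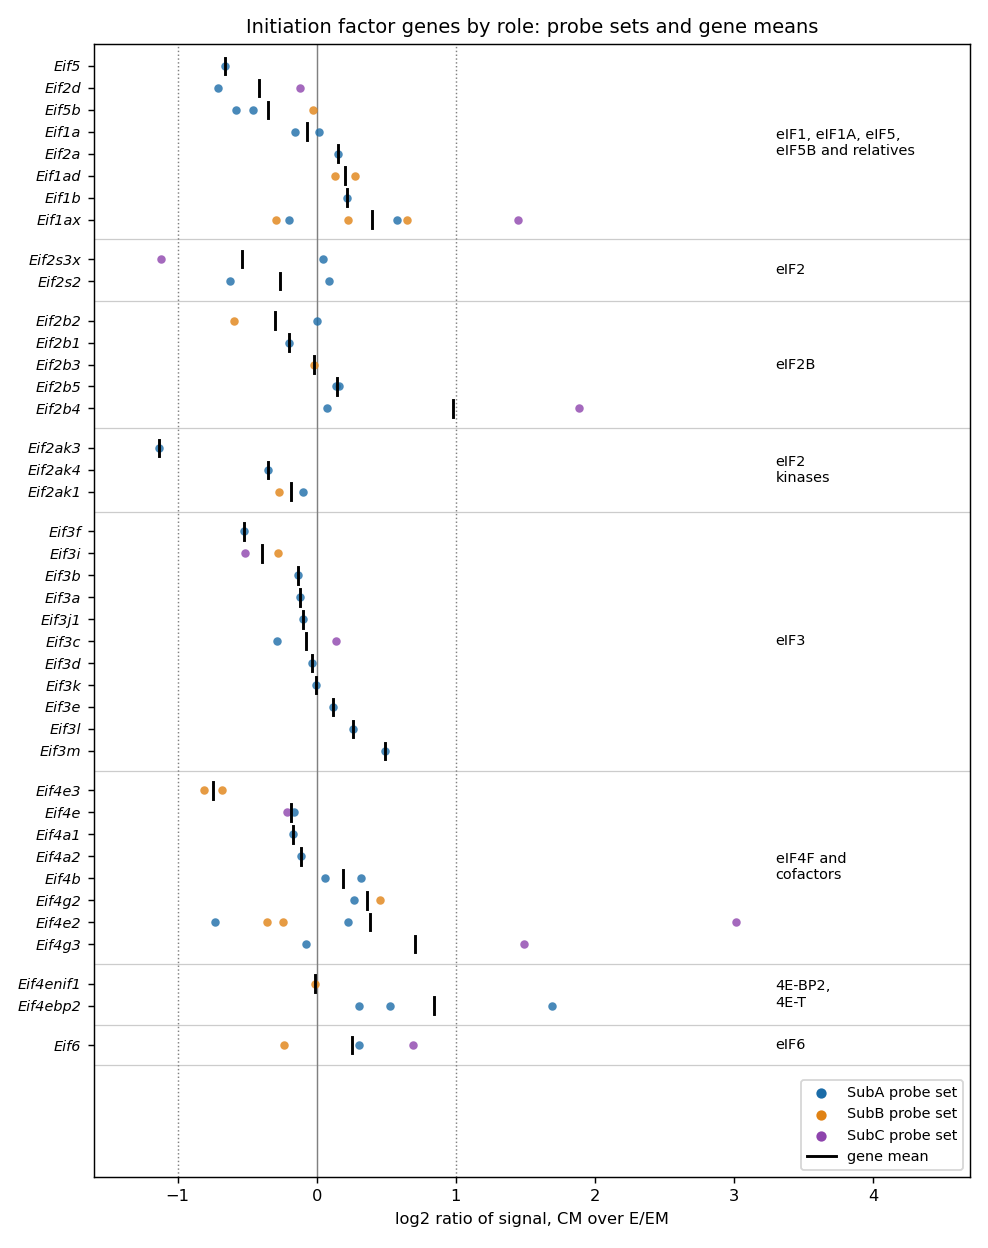
Log2 of the CM signal divided by the E/EM signal (horizontal axis) for 40 initiation factor genes in rows, grouped by role. Each dot is a probe set readable in both kinds, coloured by array type, and each black bar is the mean of the gene's probe sets. Most bars lie between the dotted 2-fold lines, Eif2ak3 at -1.13 lies outside them, and the dots farthest to the right belong to SubC.

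The eIF2 alpha kinases held the only gene with a mean ratio past 2-fold. Eif2ak3 encodes PERK, the kinase that responds to unfolded protein in the endoplasmic reticulum. Its SubA probe set had a signal of 277.6 in CM and 608.2 in E/EM cells, a log2 ratio of -1.13 or 2.19-fold lower in CM cells, with the weaker signal 8.87 times the floor. A second probe set for the same gene, on SubC, had 367.3 in CM cells and 58.9, under the floor, in E/EM cells, and so was at least 1.89-fold higher in CM cells. The direction for Eif2ak3 therefore depends on the probe set and is not settled by these arrays. Eif2ak4 encodes GCN2, which senses uncharged tRNA, and had 103.4 against 131.8, a log2 ratio of -0.35. The heme-regulated kinase gene Eif2ak1 had -0.19 ± 0.12 (SD, 2 probe sets), from 592.3 against 635.4 on SubA and 1153.8 against 1390.3 on SubB. A further Eif2ak1 probe set on SubB was above the floor in CM cells alone, at 101.4, which is at least 1.15-fold higher there. All 3 kinase genes had negative ratios, as 50.3% of all genes did, but those of Eif2ak1 and Eif2ak4 were under 1.5-fold.

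The target of these kinases, eIF2, was covered by 2 genes with a ratio. Eif2s3x encodes the gamma subunit, which binds GTP and the initiator tRNA. Its SubA probe set had 6631.6 in CM and 6437.3 in E/EM cells, a log2 ratio of 0.04. A SubC probe set of the gene had 682.4 against 1478.7, or -1.12, so the mean of -0.54 ± 0.82 (SD, 2 probe sets) has no settled direction. The beta subunit gene Eif2s2 had 172.8 against 162.5 in a first probe set and 284.1 against 436.6 in another, with log2 ratios of 0.09 and -0.62 on the same arrays. Eif2s3y, the copy of the gamma subunit gene on the Y chromosome, had 22.4 and 16.1, under the floor in both kinds of cells, which came from female mice. The alpha subunit gene Eif2s1 was not analysed here.

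The exchange factor eIF2B consists of subunits encoded by Eif2b1 to Eif2b5. Of these 5 genes 4 lay within 1.5-fold, where 76.0% of all genes did. Eif2b1 had a log2 ratio of -0.20, from 1104.8 in CM and 1269.5 in E/EM cells. Eif2b3 had -0.02, from 1131.1 and 1143.2. The catalytic subunit gene Eif2b5 had 0.15 ± 0.02 (SD, 2 probe sets), the closest agreement between probe sets of any member. Eif2b2 had 633.5 against 633.4 on SubA, a log2 ratio of 0.00023, and 186.2 against 281.6 on SubB, a ratio of -0.60. Eif2b4 had the highest mean ratio of the family, 0.98 ± 1.28 (SD, 2 probe sets), and its probe sets differed widely. The SubA probe set had 559.2 and 530.4, a ratio of 0.08, whereas the SubC probe set had 23743.7 and 6436.0, a ratio of 1.88. Without SubC the value is 0.08, and Eif2b4 is no longer past 1.5-fold. The identifiers of both probe sets mark them as shared or irregular, so no value is left once such probe sets are removed.

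Genes of eIF1, eIF1A, eIF5, eIF5B and their relatives, among them Eif1ad, Eif2a and Eif2d, were divided evenly, with 4 below 0 and 4 above. Of all genes 50.3% were below 0. Eif5 encodes the factor that makes eIF2 hydrolyse its GTP at the start codon. Its signals were 2075.1 in CM and 3270.4 in E/EM cells, a log2 ratio of -0.66, or 1.58-fold lower in CM cells. Eif5b, which encodes the GTPase that joins the large subunit, was lower in all 3 of its probe sets. It had 222.0 against 331.3 and 585.5 against 803.2 on SubA, and 688.4 against 700.1 on SubB, with a mean of -0.35 ± 0.29 (SD). The SubB difference was only 0.02 on the log2 scale in size, from a ratio of -0.02. Eif2d, a factor that can place initiator tRNA without eIF2, had 441.0 against 719.1 on SubA (-0.71) and 305.2 against 331.5 on SubC (-0.12). Another SubA probe set of Eif2d was above the floor in E/EM cells alone, at 38.4, or at least 1.23-fold lower in CM cells. All Eif2d probe sets that could be read thus pointed the same way.

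The scanning factor eIF1A is encoded by several genes. Eif1a had 1062.3 in CM against 1051.0 in E/EM cells and 1246.7 against 1387.5, log2 ratios of 0.02 and -0.15. Eif1ax, the copy on the X chromosome, had the most probe sets of any member with a ratio, 6, and 4 of them lay above 0. On SubA its signals were 459.0 in CM against 308.1 in E/EM cells (0.58) and 2315.2 against 2662.9 (-0.20). On SubB they were 323.9 against 206.5 (0.65), 257.5 against 220.6 (0.22) and, in the brightest probe set, 8548.7 against 10485.6 (-0.29). On SubC they were 5992.1 against 2197.3 (1.45). Both signs thus occurred on SubA and on SubB. The mean of 0.40 ± 0.64 (SD, 6 probe sets) is thus smaller than the spread. An additional SubB probe set of Eif1ax was above the floor only in CM cells, at 89.0, or at least 1.01-fold higher. Eif1b, a relative of the start codon factor eIF1, had 0.22, Eif1ad had 0.21 ± 0.10 (SD, 2 probe sets) and Eif2a, which encodes an alternative tRNA carrier, had 0.15.

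The subunits of eIF3, the large complex that binds the small ribosomal subunit, were measured through 11 genes. All 11 lay within 1.5-fold, where 76.0% of all genes did. Most were read on SubA, where 81.2% of all probe sets with a ratio lay within 1.5-fold. Below 0 were 8 of them and above 0 were 3, with a median of -0.07, where 50.3% of all genes were below 0. Eif3k had 4484.9 in CM and 4497.0 in E/EM cells, Eif3d 4731.8 and 4851.4, and Eif3j1 2234.2 and 2393.8. These are log2 ratios of -0.0039, -0.04 and -0.10. The core genes Eif3a and Eif3b had -0.12 and -0.13, Eif3e had 0.12, and Eif3c had -0.07 ± 0.30 (SD, 2 probe sets). At the ends of the group, Eif3m had 5524.5 against 3932.5, a ratio of 0.49, and Eif3f had 74.7 against 107.2, a ratio of -0.52. The weaker Eif3f signal was 2.39 times the floor. Eif3g and Eif3h were not analysed here. Eif3i had -0.40 ± 0.17 (SD, 2 probe sets), and Eif3l had 0.26. A SubB probe set of Eif3d was above the floor in E/EM cells alone, at 158.2, which is at least 1.80-fold lower in CM cells and stands apart from the brighter SubA probe set. Its identifier marks it as irregular, and those of both Eif3i probe sets in the ratio mark them as shared or irregular.

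**Figure D2:**
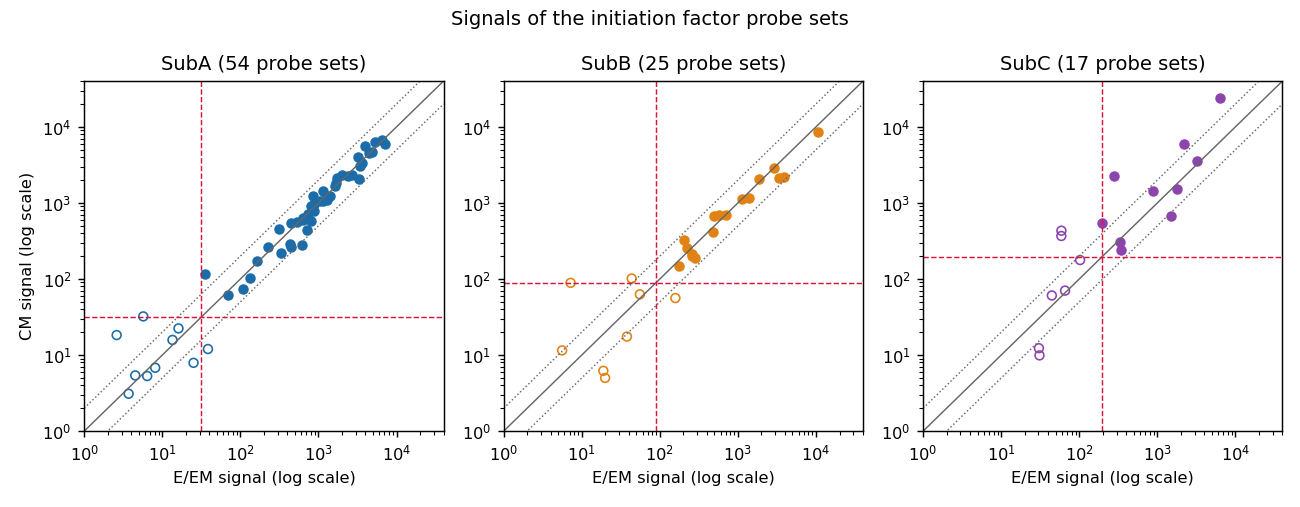
CM signal (vertical) against E/EM signal (horizontal) of each initiation factor probe set on SubA, SubB and SubC, both axes on a log scale. Filled points are readable in both kinds of cells, dashed red lines mark the floor, open points are under it in at least 1 kind, the solid line marks equal signals and the dotted lines 2-fold. The 44 filled points of SubA lie close to the line of equal signals, with 2 outside the dotted lines, and 5 of the 10 filled points of SubC lie outside them.

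Among the cap-binding factors, Eif4e3 was lower in CM cells in both of its probe sets. It encodes a relative of the cap-binding protein eIF4E. Its SubB probe sets had 2123.3 in CM against 3398.9 in E/EM cells and 2218.2 against 3888.7. The mean log2 ratio was -0.74 ± 0.09 (SD, 2 probe sets), or 1.68-fold lower in CM cells. Their weaker signals were 24.1 and 25.2 times the floor. The difference was larger than the spread between the probe sets, which is a technical spread. Eif4e itself, the limiting cap-binding subunit, had 62.0 against 69.5 on SubA and 1530.6 against 1771.1 on SubC, with a mean of -0.19 ± 0.03 (SD, 2 probe sets). The weaker SubA signal was 1.98 times the floor, and the identifier of the SubC probe set marks it as shared or irregular. After quantile normalization the Eif4e mean was -0.10, so the small SD does not make its size firm.

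Eif4e2 encodes another cap-binding relative, which competes with eIF4E. On SubA its signals were 265.7 in CM against 441.7 in E/EM cells (-0.73) and 260.6 against 223.2 (0.22). On SubB they were 409.4 against 485.0 (-0.24) and 201.9 against 258.5 (-0.36). These 4 were small beside the fifth, on SubC, which had 2246.8 in CM and 278.5 in E/EM cells, a ratio of 3.01, and gave the mean of 0.38 ± 1.51 (SD, 5 probe sets). Without SubC the mean was -0.28. Eif4e1b, a relative known from oocytes, was above the floor only in CM cells on SubC, at 431.3 against 59.0, or at least 2.22-fold higher. It was the only member with a bound in place of a ratio, and no second probe set checks it.

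The helicase genes of eIF4F lay within 1.5-fold, as 76.0% of all genes did. Eif4a1 and Eif4a2, which encode the RNA helicase, had 784.9 against 882.9 and 3367.8 against 3640.3, log2 ratios of -0.17 and -0.11. Eif4b, a cofactor of the helicase, had 4024.3 against 3232.4 and 1691.2 against 1619.4, with a mean of 0.19 ± 0.18 (SD, 2 probe sets). A further Eif4b probe set reached 32.2 in CM cells, just over the floor, and 5.7 in E/EM cells, or at least 1.03-fold higher. Eif4g2, which encodes a scaffold that works without eIF4E, had 541.9 against 449.5 on SubA and 675.9 against 493.7 on SubB. Its mean was 0.36 ± 0.13 (SD, 2 probe sets), so it was higher in CM cells on both array types. Identifiers of the Eif4a1 probe set, both Eif4b ones in the ratio and the SubB one of Eif4g2 mark them as shared or irregular. The scaffold gene Eif4g3 had 704.1 against 743.0 on SubA, a ratio of -0.08, and 545.1 against 194.4 on SubC, a ratio of 1.49. Its mean of 0.70 ± 1.11 (SD, 2 probe sets), or 1.63-fold higher, is smaller than the spread. The weaker SubC signal lay at the floor. Eif4g3 had -0.10 after quantile normalization and -0.08 without SubC, so its direction is not settled. Eif4h, another helicase cofactor, lay under the floor in both kinds of cells, and Eif4g1 was not analysed here.

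The translational repressor gene Eif4ebp2, whose protein binds eIF4E and keeps it from the scaffold, was higher in CM cells in all 3 probe sets that could be read. The signals were 2102.4 in CM against 1705.9 in E/EM cells, 1226.1 against 850.4, and 115.6 against 35.7. These gave log2 ratios of 0.30, 0.53 and 1.70, with a mean of 0.84 ± 0.75 (SD, 3 probe sets). The largest of them is uncertain in size, since its weaker signal was 1.14 times the floor, and all 3 are on the same pair of SubA arrays. The mean was 0.40 after quantile normalization and 0.41 with the floor doubled, neither past 1.5-fold, so the direction held but the call at 1.5-fold did not. Eif4enif1, which encodes a transporter that takes eIF4E into the nucleus, had 2894.0 against 2918.0, a ratio of -0.01. Eif6, which encodes a factor that keeps the ribosomal subunits apart, had 1425.5 in CM against 1152.1 in E/EM cells on SubA (0.31), 149.9 against 176.2 on SubB (-0.23) and 1433.8 against 887.7 on SubC (0.69). Its mean was 0.26 ± 0.46 (SD, 3 probe sets).

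Promoter sequences from RefSeq (GRCm38.p6) were found for 35 of the 43 genes, as windows from 250 bases before to 50 bases after an annotated transcript start. Both strands were searched for CACGTG (the E-box bound by MYC with MAX), TGATGNAA (the core of the element bound by ATF4 with a C/EBP partner), TGACGTCA (the cyclic AMP response element), CCGGAAGT (an ETS factor motif) and TATAAA. No motif contains another, and partial overlaps of matches were not removed. The E-box letters stood in the windows of 7 of the 35 genes (20.0%), beside 8.91% of 17491 protein-coding genes and 7.15% of all 32851 windows. The ETS letters stood in 6 (17.1%), beside 5.69% of protein-coding genes and 3.89% of all windows. The ATF4 element letters stood in 1 of 35 (2.86%), that of Eif2s3x, beside 4.13% and 3.97%, TGACGTCA in 0, beside 2.54% and 1.79%, and TATAAA in 3 (8.57%), beside 14.8% and 13.6%. Of the genes with the E-box letters, Eif1b, Eif3a, Eif3f, Eif3k, Eif4a1 and Eif4e had a ratio. Their values ran from -0.52 to 0.22 with a median of -0.14, and 0 of 6 were past 1.5-fold. The 6 genes with the ETS letters had a median of 0.11, and Eif2b4 was the only one past 1.5-fold.

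The 250 bases before the start are shown for 3 genes, the kinase gene past 2-fold, the repressor gene that was higher in every readable probe set, and the cap-binding gene Eif4e, whose stretch holds the E-box letters in 2 places. Capitals mark the E-box letters, which lie in Eif4e at -228 and -64 from the transcript start. The windows lie at chr6:70844265-70844514 on the plus strand (Eif2ak3), chr10:61452670-61452919 on the minus strand (Eif4ebp2) and chr3:138527018-138527267 on the plus strand (Eif4e), the last being one of its annotated starts. None of the searched motifs was in the stretches shown of Eif2ak3 and Eif4ebp2, which says only that these letters are not in them.
Eif2ak3: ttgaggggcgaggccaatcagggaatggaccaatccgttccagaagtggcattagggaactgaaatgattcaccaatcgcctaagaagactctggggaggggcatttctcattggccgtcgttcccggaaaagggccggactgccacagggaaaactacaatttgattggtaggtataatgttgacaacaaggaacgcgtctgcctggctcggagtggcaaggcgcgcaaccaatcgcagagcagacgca
Eif4ebp2: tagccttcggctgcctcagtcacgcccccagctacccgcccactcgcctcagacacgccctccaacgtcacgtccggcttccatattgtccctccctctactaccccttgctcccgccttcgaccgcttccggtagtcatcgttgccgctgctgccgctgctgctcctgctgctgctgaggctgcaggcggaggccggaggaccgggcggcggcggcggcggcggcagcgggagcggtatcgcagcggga
Eif4e: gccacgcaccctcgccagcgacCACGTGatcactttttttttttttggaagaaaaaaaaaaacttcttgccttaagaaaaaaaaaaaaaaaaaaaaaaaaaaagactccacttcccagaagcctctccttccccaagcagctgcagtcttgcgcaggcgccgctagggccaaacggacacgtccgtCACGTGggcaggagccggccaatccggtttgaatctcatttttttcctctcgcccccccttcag

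The probe sets on SubC stood apart from those on the other array types. Of 61 member probe sets with a ratio on SubA or SubB 2 were past 2-fold, and of the 10 on SubC 5 were. On SubC 4 of 10 were past 2-fold upward in CM cells, beside 8.45% of all measured SubC probe sets, and 1 of 10 downward, beside 7.6%. On SubA 1 of 44 was at least 2-fold lower, beside 4.37% of all, and 1 of 44 higher, beside 2.3%. On SubB 0 of 17 were past 2-fold in either direction, beside 6.07% lower and 3.52% higher. Some identifiers mark a probe set as shared with other transcripts or as otherwise irregular. Of the 5 past 2-fold on SubC, those of Eif1ax, Eif2b4 and Eif2s3x carry such identifiers, and those of Eif4e2 and Eif4g3 do not. The SubA probe set of Eif2b4 carries one too. In the whole family 27 of the 96 probe sets carry one. Without these probe sets 36 members kept a ratio, and Eif2b4, Eif3i, Eif4a1 and Eif4b had none.

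The same genes can be compared across array types. For 14 members a ratio was measured on more than 1 type. SubA and SubB differed by a median of 0.18 in size over 7 members, and 0 of them differed by over 1. Between SubA and SubC the median was 1.16 over 9 members, and 5 of them differed by over 1, namely Eif1ax, Eif2b4, Eif2s3x, Eif4e2 and Eif4g3. Over all genes these medians were 0.35 (1247 genes) and 0.47 (886 genes), with 8.50% and 18.1% of genes over 1 apart. Control probe sets that all 3 types share give a reference for array effects. Their actin and Gapdh ratios lay between -0.19 and -0.02 on SubA, between -0.32 and 0.11 on SubB and between 0.18 and 0.31 on SubC. Over the 12 control probe sets of mouse genes readable on all 6 arrays, the SD over array types had a median of 0.26. Its highest value was 0.54, for a transferrin receptor probe set with 0.95 on SubA, 1.72 on SubB and 2.00 on SubC. A pyruvate carboxylase probe set had -2.37, -2.56 and -1.72. The part of these offsets, and of the marked probe sets, in the SubC values was not tested.

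**Figure D3:**
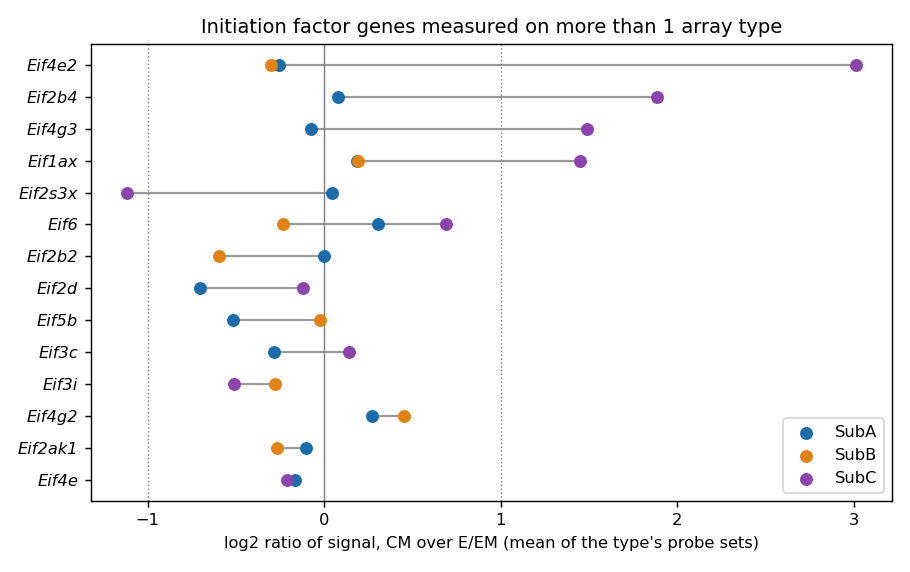
Log2 of the CM signal divided by the E/EM signal (horizontal axis) for the 14 initiation factor genes measured on more than 1 array type, each dot being the mean of a type's probe sets and each line joining the dots of a gene. The SubC dots of Eif4e2 (3.01), Eif2b4 (1.88), Eif4g3 (1.49) and Eif1ax (1.45) lie far to the right of the other types, and that of Eif2s3x (-1.12) to the left.

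Other genes of the pathway were counted in the same way. Of 28 measured regulators of initiation outside the family, 1 was past 2-fold downward in CM cells and 0 upward, near the 5.61% and 2.73% of all genes, with a median of 0.01. The lower one was Ddit4, which encodes REDD1, an inhibitor of the kinase mTORC1, at 1681.0 in CM against 4914.9 in E/EM cells, a log2 ratio of -1.55. Ppp1r15a, which encodes GADD34, the phosphatase subunit that reverses eIF2 alpha phosphorylation, had -0.61, and its constitutive counterpart Ppp1r15b had -0.24. The gene of the kinase mTOR, Mtor, had -0.30 ± 0.27 (SD, 2 probe sets), and Mknk1 and Mknk2, whose kinases phosphorylate eIF4E, had 0.12 and 0.26. Pdcd4, which encodes an inhibitor of the eIF4A helicase, had 0.28. In the list of 12 measured elongation, termination and recycling genes 0 were past 2-fold in either direction, beside those same shares, with a median of 0.0076. The elongation factor genes Eef1a1 and Eef2 had 0.04 and -0.30, and Pelo, a ribosome rescue factor gene, was lowest at -0.63 ± 0.02 (SD, 2 probe sets). Gspt2 was above the floor in E/EM cells alone, at least 1.74-fold lower in CM cells.

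**Figure D4:**
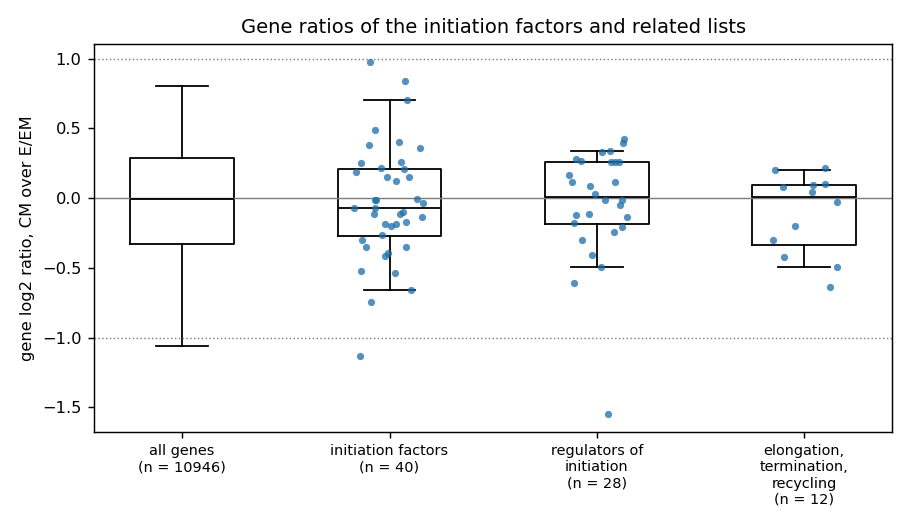
Log2 of the CM signal divided by the E/EM signal by gene (vertical axis) for all 10946 measured genes, the 40 initiation factors, 28 regulators of initiation and 12 elongation, termination and recycling genes. Boxes show quartiles and median, whiskers the 5th and 95th percentiles, and dots single genes in the 3 lists. The points outside the dotted 2-fold lines are Eif2ak3 at -1.13 and Ddit4 at -1.55.

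By their median SD, probe sets of the same member agreed about as closely as those of genes in general. Between SubA and SubC, members differed by more than genes in general, as given above. Of 21 members with at least 2 probe sets in the ratio, 12 had all of them on the same side of 0, of which 6 lay below and 6 above, and 9 had both signs. The median SD over probe sets was 0.30, beside 0.32 for 4094 genes with at least 2 probe sets. In 6 of 21 members (28.6%) the probe sets lay over 1 apart on the log2 scale, beside 20.1% of those genes. These were Eif1ax, Eif2b4, Eif2s3x, Eif4e2, Eif4ebp2 and Eif4g3, and only in Eif4ebp2 did all of the probe sets have the same sign with no contribution from SubC. Eif2b4 also had a single sign, with its large value on SubC. The remaining 19 members with a ratio rest on 1 probe set, among them Eif2ak3, Eif5 and all but Eif3c and Eif3i of the eIF3 genes.

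Most member probe sets were readable. Of the 96 probe sets 71 (74.0%) were so in both kinds of cells, beside 58.8% of all named probe sets. Another 5 were readable in CM cells alone and 2 in E/EM cells alone. The 5 signals were 1.01 (Eif1ax), 1.03 (Eif4b), 1.15 (Eif2ak1), 1.89 (Eif2ak3) and 2.22 (Eif4e1b) times the floor. The 2 were 1.23 (Eif2d) and 1.80 (Eif3d) times it. The matching shares of all named probe sets were not counted, so these counts are not read as a lean toward either kind. A further 18 were under the floor in both kinds. Eif2s3y and Eif4h had no readable probe set at all.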

How the data were processed

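Total RNA of CM and E/EM cells was measured on 3 array types, 1 array per kind of cell and type. The authors deposited linear probe set intensities, and the sources used here do not say how they were made. Leaving out the lowest and highest 2%, the mean intensity was 500.1 to 500.3 on every array, so values were used as deposited. Symbols came from GEO's platform annotation, and all 43 matched a RefSeq gene (GRCm38.p6) by Entrez identifier with 0 changed. Another 5 probe sets that list several symbols, with an Eif gene among them, named no gene.

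Each array type has 15 bacterial poly-A control probe sets, and the larger of the 90th percentiles on its 2 arrays served as floor. For probe sets above it in both kinds, log2 ratios were taken from the deposited intensities, and a gene's value was their mean, with the SD over probe sets. A probe set above it on 1 array gave "at least N-fold", its signal over the floor. Arrays number 1 per group, which limits the precision of every value. Genes were counted by size alone. The members, lists and rules were chosen with earlier results of these data known. Both signals are printed for members past 1.5-fold, with a bound, over 1 log2 unit apart, or nearest 0 in their role group, and for some others. Calculations (Python 3.11.15, pandas 2.3.3) were tested on simulated data. Alternatives were quantile normalization, centring, other floors, the brightest probe set, no shared probe sets, fewer array types and a 1.5-fold rule.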

Additional observations from a re-analysis of the deposited data

How the results depend on the processing

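The count of members at least 2-fold lower in CM cells was 1 under each of the 9 alternatives that kept the 2-fold rule. It was Eif2ak3 each time, from its SubA probe set alone. The SubC probe set of Eif2ak3, which pointed the other way, gave no ratio under any of them, so the count could not weigh it. The count of members at least 2-fold higher was 0 under 8 of these alternatives and 2 with the brightest probe set per gene. There Eif4e2 (3.01) and Eif2b4 (1.88) took their SubC values. The 1.5-fold rule gave 3 lower and 3 higher, beside 13.9% and 10.1% of all genes. At that rule the alternatives gave 3 to 5 lower, beside 9.67% to 16.9% of all genes, and 1 to 3 higher, beside 7.48% to 12.0%. Eif2b4, Eif4ebp2 and Eif4g3 each fell short of it under at least 1 of them, Eif2b4 at 0.08 without SubC and Eif4ebp2 at 0.40 after quantile normalization, 0.41 with the floor doubled or at the 60th percentile and 0.30 for its brightest probe set. Eif4g3 turned to -0.10 after quantile normalization and to -0.078 with either higher floor, with the brightest probe set, on SubA alone and without SubC. The median log2 ratio ran from -0.10 after quantile normalization to -0.03 without shared probe sets. The share of members below 0 ran from 58.3% without shared probe sets (21 of 36) to 67.5% with the floor doubled (27 of 40). Over all genes that share ran from 45.7% to 51.7%. Of 348 gene values under alternatives, 6 of Eif4g3 turned, and 336 others moved by no more than the SD over the gene's probe sets. For a gene with 1 probe set the limit was 0.32. The limit is wide where probe sets disagree, so this count does not measure stability. Without SubC, Eif4e2 was within it at -0.28 against 0.38, and Eif2b4 at 0.08 against 0.98. A gene with 1 probe set could change little under most alternatives. The sign differed from the reported one under at least 1 alternative for 6 genes, Eif1ax, Eif2b2, Eif2s3x, Eif4e2, Eif4enif1 and Eif4g3. With the floor halved, Eif3d had -0.77 in place of -0.04. No replicate could be left out, since each group is 1 array. On SubC, with the highest floor, 10 of 17 member probe sets were readable in both kinds, beside 44 of 54 on SubA.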
